A study of Mus musculus with 5 samples.

Results

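Type A γ-aminobutyric acid (GABA-A) receptors are chloride channels that open when the transmitter GABA binds, and they carry most of the fast inhibition in the brain. Transcripts of 7 of their subunit genes were examined in mouse hippocampus: the alpha subunits *Gabra2*, *Gabra3*, *Gabra4* and *Gabra5*, the beta subunits *Gabrb1* and *Gabrb2*, and the delta subunit *Gabrd*. The genes were picked by symbol, and all 7 were among the 23361 genes listed for every library. RNA-seq had been performed on total RNA from the hippocampus of 3-month-old mice. The 2 controls, titled WT, carried the floxed *Hdac1* allele on both chromosomes (*Hdac1* f/f, with no Cre in the genotype label), and the 3 *Hdac1* cKO mice carried the same floxed allele together with *Nestin-Cre*. HDAC1 is a histone deacetylase that takes part in gene repression. *Nestin-Cre* acts in neural precursors, so that neurons and astrocytes lose the gene while microglia keep it. Only the cKO label names Cre, and a difference made by the transgene itself cannot be told apart from one made by loss of *Hdac1*. The comparison asks whether the transcripts of these receptor subunits differ in young cKO mice.

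A GABA-A receptor is a ring of subunits around a pore, most often built from alpha and beta subunits with a gamma or a delta subunit. GABA binds between a beta and an alpha subunit, and benzodiazepines bind between an alpha and a gamma subunit. The alpha subunit sets much of the pharmacology and the place of the receptor. Alpha 2 is enriched at synapses on the axon initial segment of pyramidal cells, alpha 5 is abundant in hippocampal pyramidal cells and lies largely outside synapses, and alpha 4 joins delta in receptors of dentate granule cells that give a lasting, tonic inhibition.

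The coding sequences show both what the members share and where their drug binding differs. The first set is shown because it holds the codon that separates the alpha subunits sensitive to classical benzodiazepines from the insensitive ones. Each run is the 27 bases that encode the first binding loop on the alpha face, or the matching stretch of the other subunits, and the capitals mark the codon at the drug-binding position of the alpha subunits.
Gabra2: cctgataccttctttCACaatgggaaa
Gabra3: cctgataccttcttcCACaatggtaaa
Gabra5: ccagacacgttcttcCACaacggcaag
Gabra4: cctgatactttcttcAGGaatggaaag
Gabrb1: ccagacacctactttCTCaatgacaag
Gabrb2: cctgacacctacttcCTGaatgataag
Gabrd: cctgacaccttcatcGTGaatgccaaa
*Gabra2*, *Gabra3* and *Gabra5* have CAC there, a histidine codon, while *Gabra4* has AGG, an arginine codon. The histidine is needed for binding of classical benzodiazepines, and receptors with alpha 4 are insensitive to them. The sequences were read from GENCODE vM1 coding transcripts on the NCBIM37 (mm9) build, each inside 1 exon. They lie at chr5:71405735-71405761 in exon 5 of *Gabra2*, chrX:69746498-69746524 in exon 5 of *Gabra3*, chr7:64744252-64744278 in exon 5 of *Gabra5* and chr5:72032382-72032408 in exon 4 of *Gabra4*, all on the minus strand. For the others they lie at chr5:72260752-72260778 in exon 4 of *Gabrb1* and chr11:42300812-42300838 in exon 5 of *Gabrb2*, both on the plus strand, and at chr4:154762444-154762470 in exon 4 of *Gabrd* on the minus strand.

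The second set is shown because it lines the chloride pore, the part common to all of them. Each run is the 24 bases that encode a stretch of the second membrane-spanning helix, and the capitals mark the positions at which the 7 genes do not all have the same base.
Gabra2: acAacTgtTctAacAatgacAacC
Gabra3: acCacTgtTctCacCatgacCacC
Gabra4: acCacAgtCctCacGatgacCacC
Gabra5: acCacAgtGctGacCatgacAacA
Gabrb1: acTacGgtGctGacCatgacCacC
Gabrb2: acAacTgtCctAacAatgacCacA
Gabrd: acCacTgtGctGacAatgacCacG
The 7 runs differ at 7 positions, and each of these is the last base of a codon, so the encoded stretch is the same in every member. They were found at chr5:71364838-71364861 in exon 9 of *Gabra2*, chrX:69690697-69690720 in exon 9 of *Gabra3*, chr5:72015325-72015348 in exon 8 of *Gabra4* and chr7:64669139-64669162 in exon 9 of *Gabra5*. For the beta and delta genes the positions were chr5:72513193-72513216 in exon 8 of *Gabrb1*, chr11:42411048-42411071 in exon 9 of *Gabrb2* and chr4:154760227-154760250 in exon 8 of *Gabrd*. Over the whole coding sequence the alpha genes were 67.8% to 73.4% identical to each other (6 pairs), the beta pair was 72.7% identical, and pairs of different classes were 57.1% to 63.8% identical (14 pairs). No coding transcript of another gene matched a member at 95% identity or more over at least 200 nt.

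*Gabra2* (71352296 to 71487088, minus strand), *Gabra4* (71960973 to 72049547, minus strand) and *Gabrb1* (72091171 to 72529628, plus strand) lie together on chromosome 5 (mm9), with 41624 bases between *Gabra4* and *Gabrb1*. *Gabra5* is on chromosome 7 (64663060 to 64765379, minus strand), *Gabrb2* on chromosome 11 (42233259 to 42446092, plus strand), *Gabra3* on chromosome X (69678020 to 69902187, minus strand) and *Gabrd* on chromosome 4 (154759089 to 154772221, minus strand). *Gabra5* shares 118 of its 2653 exonic bases with *Gm9962* on the opposite strand. The other members share none with another annotated gene.

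Libraries were compared before the subunits were read. *Hdac1* stood at 8.95 and 13.1 FPKM (fragments counted for a gene, scaled by transcript length and by library size) in controls, against 1.95, 3.12 and 3.37 FPKM in cKO, so that it was lower in every cKO library. Its log2 fold change was −1.66 (SE 0.21, limma adjusted p = 0.219), so the deleted gene itself did not pass an adjusted p of 0.05 in this fit. It did with the library set as a term (limma adjusted p = 0.00389). It also did with the replicate number (0.0115), a term that takes cKO 3 out of the genotype estimate. No pair of libraries held identical values. The total ranged from 565363 FPKM in control 2 to 636705 FPKM in cKO 1, and the depth was estimated at 5140000 to 6770000 fragments. The gene *Rmrp* alone made up 6.79% of the total in cKO 2 and 10.7% in cKO 1, the lowest and highest shares. It therefore weighs on any scaling of libraries to a common total. As steps in the low values show, control 1 and cKO 1 form a first library set, and control 2, cKO 2 and cKO 3 a second. In each pair of libraries the fullest narrow window of the ratio held 24.6% to 28.4% of low genes within a set and 3.71% to 4.64% across sets, and the genotype difference of each subunit is therefore also given within the sets. Markers of the 2 main hippocampal neuron types were present, and each of 8 dentate granule cell markers and 8 CA pyramidal cell markers reached a mean of 1 FPKM. *Ttr*, a marker of the choroid plexus that lies against the hippocampus, ran from 1.33 FPKM in control 2 to 589 FPKM in cKO 2.

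Alpha 5 was the most abundant transcript of the 7 in every library and alpha 3 the least abundant. Mean levels over the 5 libraries ran from 117 ± 12.9 FPKM for *Gabra5* (SD, n = 5) through 75.1 ± 12.2 for *Gabra2*, 45.4 ± 1.64 for *Gabra4*, 43.1 ± 3.36 for *Gabrb2*, 27.1 ± 3.60 for *Gabrb1* and 16.8 ± 0.988 for *Gabrd* to 11.5 ± 2.13 FPKM for *Gabra3*. The top of this order was 10.1 times the bottom. *Gabra5* exceeded 94.8% of the 12740 genes that averaged 1 FPKM or more, and *Gabra3* exceeded 51.8% of them. In whole tissue, fewer cells of a type and less RNA per cell cannot be told apart. Of the 6 steps between neighbours in this order, 5 kept their direction in all 5 libraries, and in those 5 the ranges of the neighbours did not overlap.

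*Gabra5* was on average 1.56 times *Gabra2* (1.29 to 2.34 between libraries), *Gabra2* was 1.63 times *Gabra4* (1.20 to 1.92), *Gabrb2* was 1.60 times *Gabrb1* (1.47 to 1.73), *Gabrb1* was 1.61 times *Gabrd* (1.35 to 2.05) and *Gabrd* was 1.47 times *Gabra3* (1.13 to 1.87). The order was read from the same 5 libraries, so these ratios are given as a description. The remaining step, from *Gabra4* to *Gabrb2*, was within the spread. *Gabra4* was higher in 3 of 5 libraries, with a ratio from 0.960 to 1.19 and a mean of 1.06. FPKM divides by transcript length, so this order rests on the lengths in the annotation that the authors used. *Gabrb2* for example has coding transcripts of 3989 and 7665 nt in GENCODE vM1.

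**Figure D1:**
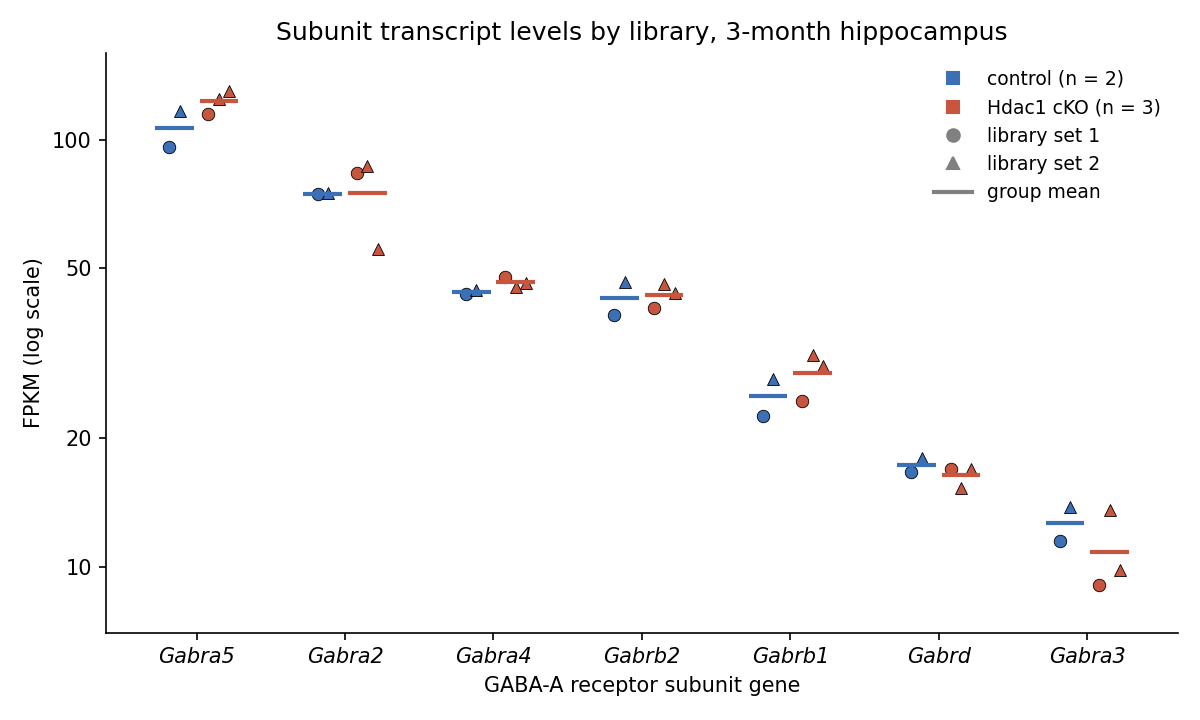
FPKM on a log axis for each of the 7 subunit genes, ordered by mean level, with controls in blue and Hdac1 cKO in red, circles for the first library set, triangles for the second and bars for group means. Gabra5 lies at the top at 96.3 to 130.1 FPKM and Gabra3 at the bottom at 9.05 to 13.8 FPKM, and the Gabra2 triangle of cKO 3 at 55.5 FPKM stands apart from the other 4 points of that gene.

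The 7 members do not make up the whole family. Of 12 other GABA-A subunit genes in the files, 5 averaged 1 FPKM or more. Of these, 3 lay above *Gabra2* in the order and 0 above *Gabra5*, while 2 were between 1 and 15 FPKM. The other 7 averaged at most 0.236 FPKM, and 2 of them were listed at 0 in every library. The 7 members together held 54.9% of the summed mean FPKM of all 19 subunit genes.

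*Gabra5*, the alpha subunit typical of hippocampal pyramidal cells, measured 96.3 and 117 FPKM in controls, against 115, 125 and 130.1 FPKM in cKO. The lowest library was control 1, control 2 lay above cKO 1, and the groups overlapped. The log2 fold change on log2(FPKM + 1) was 0.21 (SE 0.11, limma adjusted p = 0.955, unadjusted 0.0980). Within the first library set the difference was 0.25 and within the second 0.13. With the set as a term in the model it was 0.18 (limma adjusted p = 0.497, unadjusted 0.0264), a fit in which 9.34% of tested genes fell under an unadjusted 0.05. Without control 2 it was 0.35 (limma adjusted p = 0.859, unadjusted 0.0319, background 5.38%), and without control 1 it was 0.08.

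*Gabra2*, found in synaptic receptors, measured 74.6 and 74.98 FPKM in controls, against 83.7, 86.8 and 55.5 FPKM in cKO. The controls lay next to each other, cKO 1 and cKO 2 were above both, and cKO 3 was below both. The lowest library held an estimated 840 fragments of this gene, which corresponds to a counting error of about 3.5%. The group means were 74.8 ± 0.266 (SD, n = 2) and 75.3 ± 17.2 FPKM (SD, n = 3), with a log2 fold change of −0.02 (SE 0.18, limma adjusted p = 0.992). The direction differed between the library sets, 0.16 in the first and −0.11 in the second, and without cKO 3 the log2 fold change was 0.19.

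*Gabra4*, the alpha partner of delta in dentate granule cells, was the steadiest member. Controls measured 43.5 and 44.6 FPKM, against 47.8, 45.2 and 46.1 FPKM in cKO. As deposited, all cKO libraries lay above both controls, and *Gabra4* was the only one of the 7 whose groups did not overlap. Over all tested genes the groups were apart in 20.4% (cKO higher in 11%, lower in 9.41%). The log2 fold change was 0.07 (SE 0.09, limma adjusted p = 0.974), 0.13 within the first set and 0.03 within the second. With libraries scaled to a common total it was 0.0073. The spread over the 5 libraries was 3.61% of the mean.

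*Gabra3*, the X-linked alpha subunit, measured 11.5 and 13.8 FPKM in controls, against 9.05, 13.5 and 9.82 FPKM in cKO. Of the cKO libraries 2 were below both controls, and cKO 2 lay between them. The log2 fold change was −0.22 (SE 0.17, limma adjusted p = 0.955), −0.31 within the first set and −0.24 within the second. It is the lowest of the members, with an estimated 110 to 160 fragments per library and a counting error of about 9.6% in the lowest library. Leaving out 1 library gave −0.10 without control 2, −0.11 without cKO 1 and −0.34 without control 1. Without cKO 2 the log2 fold change was −0.38 (limma adjusted p = 0.999, unadjusted 0.0294), with 3.04% of tested genes under an unadjusted 0.05.

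*Gabrd*, the delta subunit of receptors outside synapses, measured 16.6 and 18.0 FPKM in controls, against 16.9, 15.2 and 17.0 FPKM in cKO. The groups overlapped, and cKO 2 was the lowest library. The log2 fold change was −0.08 (SE 0.11, limma adjusted p = 0.974), 0.02 within the first set and −0.15 within the second. Leaving out 1 library gave −0.13 (without control 1) to −0.02 (without control 2). The 8 dentate granule cell markers, the cells in which delta is best known, summed to 211 and 229.9 FPKM in controls, against 216 to 221 FPKM in cKO, and 4 of them were higher and 4 lower in cKO (2 and 6 at a common total).

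The beta subunits form part of the GABA-binding site. *Gabrb1* measured 22.5 and 27.6 FPKM in controls, against 24.5, 31.3 and 29.6 FPKM in cKO. The log2 fold change of *Gabrb1* was 0.18 (SE 0.14, limma adjusted p = 0.955), 0.11 within the first set and 0.14 within the second. It was 0.03 without control 1 and 0.32 without control 2. Its groups overlapped, with both libraries of the first set at the bottom. *Gabrb2* measured 38.9 and 46.5 FPKM in controls, against 40.4, 46.1 and 43.7 FPKM in cKO. All 3 cKO libraries lay between the controls. Its log2 fold change was 0.03 (SE 0.11, limma adjusted p = 0.989), 0.05 within the first set and −0.05 within the second.

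No subunit passed the study's threshold of a 1.5-fold change with an unadjusted p under 0.05, which 0.659% of all tested genes passed (84 of 12740). In limma 0 of 7 members had an unadjusted p under 0.05, against 4.36% of tested genes, and 0 had an adjusted p under 0.05, against 0.00785%. On the log2(FPKM + 1) scale 4 members were higher and 3 lower in cKO (3 and 4 when libraries were scaled to a common total; 5 and 2 by group means of FPKM, where *Gabra2* turned), with a median log2 fold change of 0.03 beside 0.01 for all tested genes. The 95% confidence intervals set limits on what was missed. For 6 of the 7 members the interval lay inside a 1.5-fold change in either direction, a count that was 4 without control 2, where *Gabra5* and *Gabrb1* also reached beyond it, and 5 without cKO 2, where *Gabra2* did. It was 7 without cKO 1 and with the library set as a term. The count was also 7 with the replicate number, a term that takes cKO 3 out of the genotype estimate. The interval of *Gabra3* ran from 0.651-fold to 1.13-fold. *Gabra4* was the most closely bounded, from 0.909-fold to 1.22-fold, and *Gabra5* could be from 0.966-fold to 1.39-fold.

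**Figure D2:**
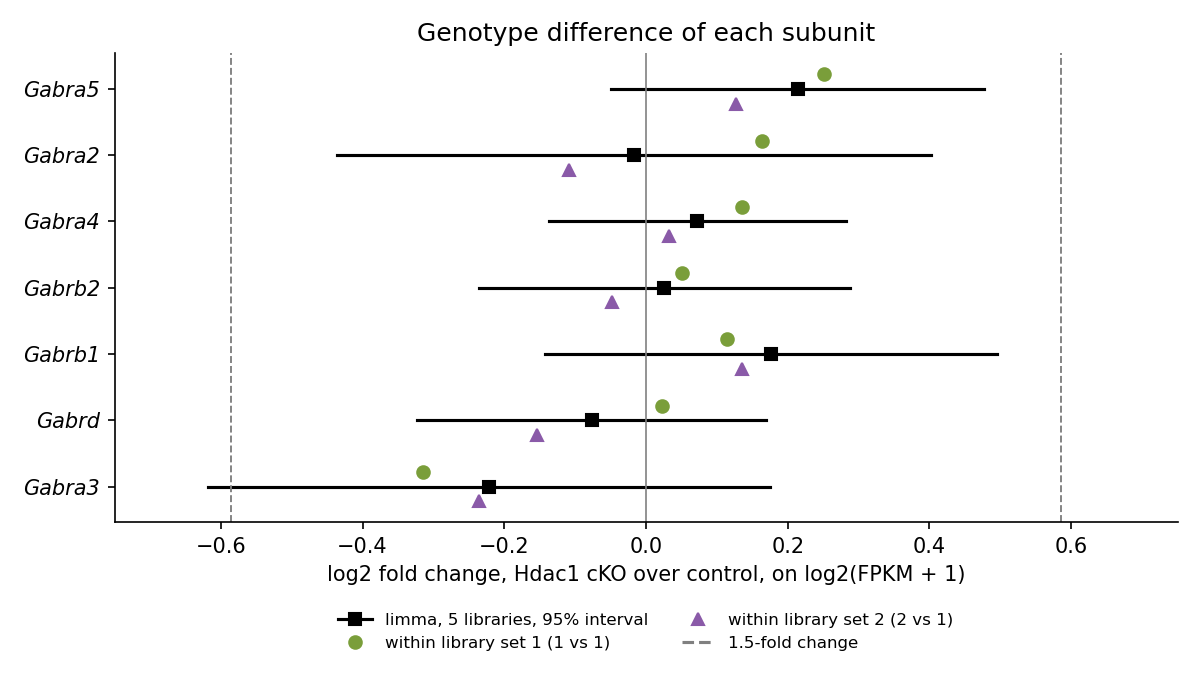
Log2 fold change of each subunit (Hdac1 cKO over control) on log2(FPKM + 1), with the limma estimate and its 95% interval as a square and bar, the difference within the first library set as a circle and within the second as a triangle, and dashed lines at a 1.5-fold change. All 7 intervals cross 0, and the interval of Gabra3 crosses a dashed line, with its lower end at −0.62.

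The members were also set against each other inside each library, which removes any common scaling. These shares and ratios were chosen after the values were seen and were not tested. Of 8 such measures 3 had groups that did not overlap, beside 20.4% of all tested genes. The measures reuse the same genes and are not independent, so that share of single genes is not a matched background for them. Among the 4 alpha genes, *Gabra5* held 42.6% and 46.7% of the summed FPKM in controls, against 45.0%, 46.2% and 53.9% in cKO. *Gabra2* held 33.0% and 29.98% in controls, against 32.8%, 32.1% and 23.0% in cKO, so the mix of cKO 3 stood apart. The share of *Gabra3* was 5.09% and 5.50% in controls, against 3.54%, 5.003% and 4.06% in cKO, without overlap. Of the 2 beta genes, *Gabrb2* held 63.4% and 62.7% in controls, against 62.3%, 59.6% and 59.7% in cKO, again without overlap. The share of *Gabra4* overlapped, at 19.2% and 17.8% in controls, against 18.7%, 16.7% and 19.1% in cKO.

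*Gabra4* and *Gabrd*, which join in the same receptors, can be compared as a ratio. Controls gave 2.61 and 2.48, against 2.83, 2.96 and 2.72 in cKO. All cKO values lay above both controls, with *Gabra4* slightly higher and *Gabrd* slightly lower on average and neither of them past a test. The ratio of *Gabra5* to *Gabra2* was 1.29 and 1.56 in controls, against 1.37, 1.44 and 2.34 in cKO, where cKO 3 alone was high.

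**Figure D3:**
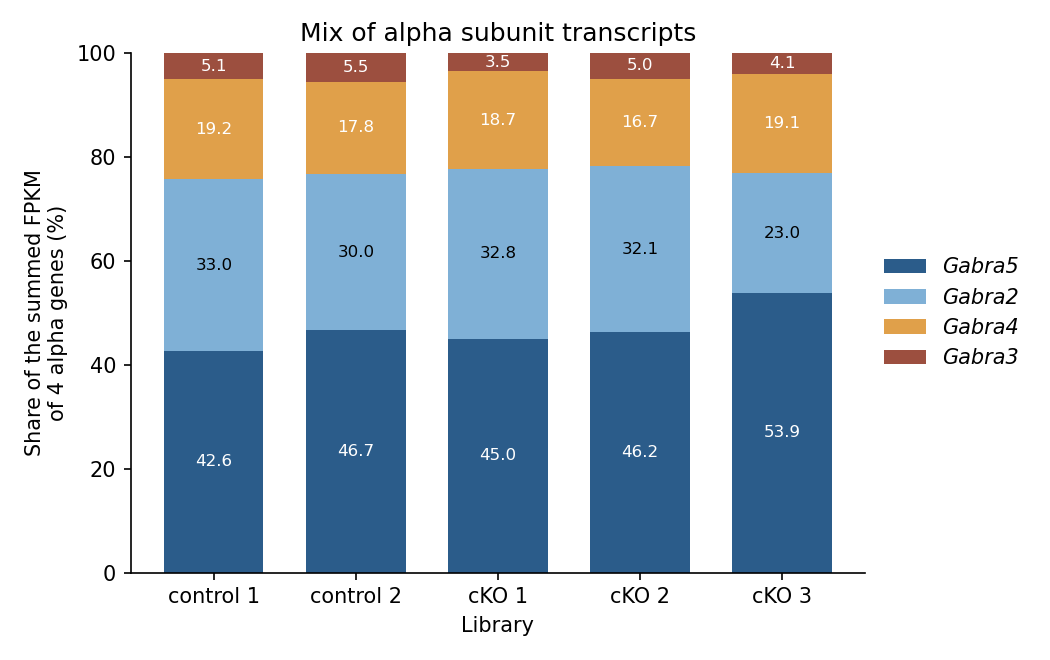
Share of each alpha subunit gene in the summed FPKM of Gabra2, Gabra3, Gabra4 and Gabra5, in percent, as 1 stacked bar per library. Gabra5 takes the largest part of each bar, from 42.6% in control 1 to 53.9% in cKO 3, and the Gabra2 part is smallest in cKO 3 at 23.0%.

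Some members also differed between the library sets. *Gabra5* was at 96.3 and 115 FPKM in the first set and at 117 to 130.1 FPKM in the second, *Gabrb1* at 22.5 and 24.5 against 27.6 to 31.3 FPKM, and *Gabrb2* at 38.9 and 40.4 against 43.7 to 46.5 FPKM. In these 3 of 7 members the sets did not overlap, and the second was higher. Over all tested genes the sets did not overlap in 40.1%, and in 26.1% with the second set higher, so separation by set was common among all genes. With genotype in the model the second set was higher by 0.29 for *Gabrb1* (limma adjusted p = 0.0738), by 0.20 for *Gabra5* (0.124) and by 0.19 for *Gabrb2* (0.162). These 3 were under an unadjusted p of 0.05, as were 22.9% of all tested genes, and 0 members passed an adjusted p of 0.05, which 3.09% of tested genes passed. *Gabra3* was higher by 0.29 in the second set (0.259), *Gabra2* differed by −0.15 (0.649), and *Gabra4* and *Gabrd* by −0.02 (0.875) and 0.0066 (0.977), each with its limma adjusted p in parentheses.

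**Figure D4:**
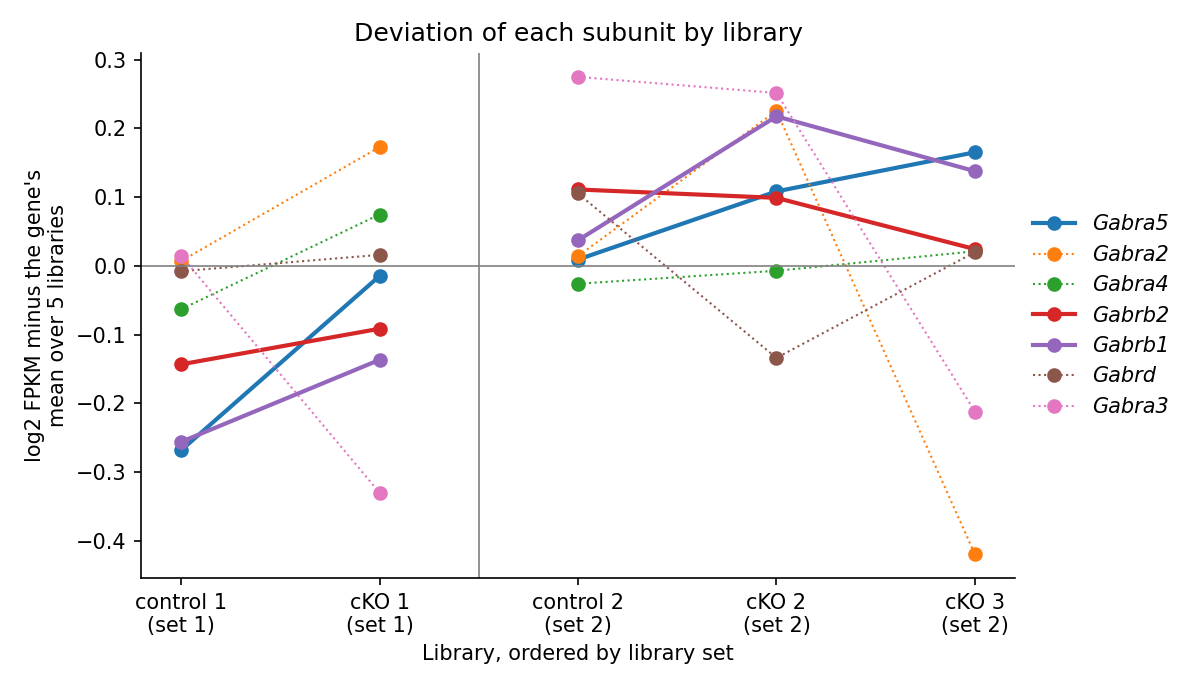
Log2 FPKM of each subunit minus its own mean over the 5 libraries, with libraries ordered by set and the vertical line between the sets. Gabra5, Gabrb1 and Gabrb2 (solid lines) are lower in both libraries of the first set than in any library of the second, while Gabra2 in cKO 3 is the lowest point of the plot.

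For each member the genes most alike in profile were sought among the 6 other members and 41 further tested genes of GABA and glycine signalling (47 in all), by the distance between log2(FPKM + 1) profiles centred on each gene's mean over the 5 libraries. *Gabra4* lay nearest to *Gabarapl1*, a member of the GABA-A receptor-associated protein family (distance 0.06), and to *Gabbr1*, a GABA-B receptor subunit (0.08), each of which varied little. *Gabrb2* was nearest to *Gad1*, which makes GABA (0.08), and to *Kctd16*, an auxiliary subunit of GABA-B receptors (0.09). *Gabrd* lay at 0.11 from *Gabbr1*, and *Gabra5* was nearest to *Gabrb1* (0.16). *Gabra2* and *Gabra3* were farther from every gene searched, with nearest distances of 0.36 and 0.30.

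The lists around the receptor, 6 in all, held 50 further genes of GABA and glycine signalling, the other GABA-A subunits included, of which 41 were tested. In limma 3 of them (7.32%) had an unadjusted p under 0.05, all lower in cKO, where 4.36% of all tested genes were called in either direction and 1.99% as lower. Of the 41, 0 passed the fold threshold with it and 0 an adjusted p of 0.05. *Slc32a1*, the transporter that loads GABA into vesicles, measured 8.40 and 8.50 FPKM in controls, against 6.15, 4.20 and 6.31 FPKM in cKO. Its mean FPKM was 1.52 times higher in controls, and its difference was −0.54 on the log2(FPKM + 1) scale, short of the fold threshold on that scale (SE 0.17, limma adjusted p = 0.955), −0.39 within the first set and −0.62 within the second. All cKO libraries were below both controls, as for 9.41% of all tested genes. *Gad1*, which encodes a GABA-making enzyme, differed by −0.04 on the log2 scale. Of the 8 genes of GABA synthesis, packaging, uptake and breakdown, 7 were lower in cKO and 1 was higher under each scaling, where 46.3% of all tested genes were lower as deposited and 62.6% at a common total.

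*Nlgn2*, an adhesion molecule of inhibitory synapses, measured 22.3 and 19.8 FPKM in controls, against 19.1, 15.8 and 16.2 FPKM in cKO (difference −0.29, limma adjusted p = 0.955, within the sets −0.21 and −0.29). *Slc12a5*, which encodes the chloride exporter KCC2 that makes GABA inhibitory in mature neurons, measured 53.5 and 54.0 FPKM in controls, against 49.2, 42.0 and 45.3 FPKM in cKO (difference −0.24, limma adjusted p = 0.955, within the sets −0.12 and −0.30). Both genes were lower in every cKO library than in either control, as were 9.41% of all tested genes. Each had an unadjusted limma p under 0.05 in the same libraries, so this separation adds no support. Of 16 genes of the inhibitory postsynaptic scaffold and receptor trafficking 6 were higher and 10 lower, with a median of −0.02. The 6 genes of GABA-B receptors and their auxiliary subunits were split evenly, 3 higher and 3 lower, though only 1 was higher at a common total. Of the other GABA-A subunits, all 5 tested genes were higher (4 with quantile normalization or a common total), with a median of 0.10 and none under an unadjusted limma p of 0.05. Of 3 tested glycine receptor genes 2 were higher and 1 lower, and of 3 chloride transport genes, *Slc12a5* among them, 1 was higher and 2 lower (0 and 3 at a common total).

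Cell type markers were read beside these values. Pan-neuron markers were lower in cKO for 8 of 9 genes, with 2 under an unadjusted limma p of 0.05 (*Stmn2* at −0.24 and *Nefm* at −0.38), beside 46.3% of all tested genes lower (62.6% at a common total) and 1.99% lower with that p. They had a summed level of 1854 and 2103 FPKM in the controls against 1800 to 1996 FPKM in cKO (lowest to highest). Astrocyte markers were higher for 7 of 9 (5 of 9 with median-ratio factors, quantile normalization or a common total), beside 53.7% of all tested genes as deposited and 37.4% at a common total. *Gfap* was at 0.43 (limma adjusted p = 0.955, unadjusted 0.00542, within the sets 0.27 and 0.56), the only one called at an unadjusted 0.05, as were 2.37% of tested genes in that direction. The markers summed to 1672 and 1679 FPKM against 1910 to 2026 FPKM. Oligodendrocyte markers were higher for 6 of 7 (4 of 7 at a common total), with a median of 0.11 and none under an unadjusted p of 0.05. Of the 7 microglia markers 3 were higher, of 3 choroid plexus markers 2, and of 4 blood markers 1, *Hba-a2* at 2.32 (limma adjusted p = 0.955), whose reads cannot be separated with certainty from its near copy *Hba-a1* at −2.49. The 10 interneuron markers, of which *Slc32a1* is one, were higher for 4 and lower for 6. Thalamic markers, from tissue next to the hippocampus that also expresses *Gabra4* and *Gabrd*, were 3 higher and 3 lower, with *Slc17a6* at −0.62, past the fold threshold with an unadjusted p under 0.05. None of the genes in these lists was at 0 in every library, none passed an adjusted p of 0.05, and the part of cell composition in the subunit values was not tested.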

How the data were processed

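RNA-seq of hippocampus from 2 control and 3 *Hdac1* cKO mice was analysed. The authors made total RNA libraries with a TruSeq kit, sequenced them on an Illumina HiSeq instrument, aligned reads with Tophat2 and computed the deposited FPKM values with Cufflinks 2.0.0 and the UCSC mm9 annotation. Whether counting used strand is not given in the sources used here. FPKM are not counts, so count tests were not used.

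Genes averaging 1 FPKM or more (12740 of 23361) were tested with limma 3.58.1 in R 4.3.3 on log2(FPKM + 1). The model held genotype alone, with a variance trend and two-sided p-values adjusted by Benjamini-Hochberg over all tested genes. The log2(FPKM + 1) scale understates changes of low genes. The limma step was tested on simulated data. Library sets came from genes with a mean under 0.3 FPKM: pairs of libraries with over 10% of ratios in 1 window of 0.05 log2 units were placed together. Depth was estimated from the most common value of FPKM times length in genes with a single transcript of at least 1000 nt, and fragments per subunit from its shortest complete coding transcript, and both are approximate. Sequences were read from GENCODE vM1 and checked against the NCBIM37 genome. Coding sequences were aligned with Biopython 1.88, and copies were searched with BLAST 2.17.0. Of the file symbols 90.8% matched that annotation.

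The members, lists, library sets and tests were chosen with earlier results of these data known. Named were the 7 members, *Hdac1* and *Rmrp*. List genes were also named, as far as a result turned on them. These had an unadjusted limma p under 0.05 or were among the 3 highest of their list. For each member the nearest genes by profile were named in the same way. Other GABA-A subunits are given as counts only. Some of the nearest genes are not reported here. A sign-flip test of neighbouring subunits was computed but is not given, since the order came from the same libraries. Alternatives were another pseudocount (0.1), no filter or a minimum mean of 5 FPKM, median-ratio factors, quantile normalization, a common total, no variance trend, a replicate or library set term, and leaving out each library.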

Additional observations from a re-analysis of the deposited data

How the results depend on the processing

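Over 14 alternatives 0 of the 7 subunits passed an adjusted limma p of 0.05 (lowest 0.424) and 0 passed the 1.5-fold threshold. The order of the subunits by average level was the same in 9 of 9 alternatives. These drew on the same libraries and transcript lengths, so they could not test the order independently. Between single libraries *Gabra4* and *Gabrb2* changed places. *Gabra3*, *Gabra4*, *Gabra5*, *Gabrb1* and *Gabrd* kept their direction in all 14, though not their size. At a common total they were at −0.29, 0.0073, 0.15, 0.11 and −0.14 in that order. The replicate block gives cKO 3, which shares its number with no control, a term of its own, so its estimates are those without cKO 3. *Gabra2* turned to 0.19 with this block (limma adjusted p = 0.424, unadjusted 0.0347), in a fit with 11.2% of tested genes under an unadjusted 0.05. *Gabra2* turned to 0.0077 with the library set as a term, and leaving out 1 library gave −0.13 to 0.19. *Gabrb2* turned to −0.040 at a common total and to −0.0060 with the set term, and leaving out 1 library gave −0.10 to 0.15. For *Gabra5* the range was 0.08 without control 1 to 0.35 without control 2.

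The count of all genes past the fold threshold, 84, was 142 with a pseudocount of 0.1, 43 with a minimum mean of 5 FPKM and 133 with the replicate block. Leaving out 1 library gave 92 to 231, with 152 without control 1, 231 without control 2 and 148 without cKO 1. At a common total 41.1% of 124 genes were higher in place of 60.7%. Genes past an adjusted p of 0.05 numbered 1 at first, 14 with the replicate block, 5 with the set term, and 1 to 5 when 1 library was left out (5 without control 2). Same-numbered libraries deviated from their group means together (r = 0.402 and 0.269 across 12740 genes), and so did control 2 and cKO 3 (0.151). Deviations of the controls mirror each other and those of the cKO libraries balance out, so these values are not independent. Each same-numbered pair also shares a library set, and the labels do not say that the numbers pair mice. The cause of these shifts was not tested. Estimated fragments were fewest for *Gabra3* and *Gabrd*, at 110 to 230 per library, while the SE of the log2 fold change was largest for *Gabra2* (0.18).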
